A study of Drosophila melanogaster with 2 samples.

Results

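The genes examined encode the subunits of the proteasome and their duplicates, and were taken by symbol. They are the protein-coding genes of the Ensembl BDGP6 annotation whose symbol begins with Prosalpha, Prosbeta, Rpn or Rpt followed by a number. The rule found 48 genes of 13968 protein-coding genes on the chromosome arms. Of these, 32 carry a plain symbol and are called single-form here, and 16 are duplicates, whose symbol adds R or T after the number. The duplicates belong to 12 of the single-form genes.

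Occupancy of the Drosophila melanogaster protein Ravus was mapped by chromatin immunoprecipitation with sequencing (ChIP-seq) in whole embryos of 0 to 24 h. The transgenic strain, Ravus-GFP, carries an insertion for a Ravus-eGFP fusion, in which eGFP is a green fluorescent protein that serves as a tag, and the precipitation used an antibody to GFP. There is 1 group of 2 biological replicates and no second genotype, treatment or age. Nothing in the sources used here says which promoter drives the fusion or how many embryos were pooled, and the sex of the embryos was not collected. A weak peak in whole embryos may be weak occupancy in many cells or strong occupancy in few, and these cannot be told apart. With 1 group, no test between conditions can be made, and the values below are descriptions in which the range after a percent is the exact binomial 95% interval (Clopper-Pearson) and covers counting error alone.

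The proteasome degrades proteins tagged with ubiquitin. Its 20S core is a barrel of outer rings of alpha subunits and inner rings of beta subunits, and the beta subunits hold the proteolytic sites. The 19S regulatory particle caps the barrel. Its base holds the ring of Rpt ATPases, which unfold substrates, the scaffold proteins Rpn1 and Rpn2 and the ubiquitin receptors Rpn10 and Rpn13. Its lid holds the other Rpn subunits, among them the deubiquitinase Rpn11. Flies have testis-type duplicates of several subunits beside the genes that all cells use.

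A gene was counted as having a summit when the point of highest enrichment of a peak lay within 500 bp of any of its annotated transcription start sites. The 8 deposited lists fall into 4 thresholded lists, of 1450 to 1908 peaks, and 4 ranked lists, which also hold weak peaks. The ranked lists of the replicates hold 52143 peaks in replicate 1 and 37242 in replicate 2. The depth of the libraries is unknown. The signal is the authors' value for a peak, with no stated scale, so it is compared only within a list.

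Of the proteasome genes, 3 had a summit in a thresholded list that used both replicates, and all were single-form. These were Rpn3 and Rpn5 of the lid and Prosbeta2 of the core. Their summit sequences are shown because these 3 sites carry the strongest occupancy found at any proteasome gene in the series lists. Each is read on the strand of the gene from the Release 6 reference, the dm6 sequence, and covers up to 75 bp on either side of the summit, ending where an annotated untranslated region begins. The Rpn3 stretch is chr2L:19051695-19051789, on the plus strand and 95 bp long, that of Prosbeta2 is chr3L:14999689-14999839, also plus and 151 bp long, and that of Rpn5 is chr3R:5789176-5789326, plus and 151 bp long. Capitals mark matches on either strand to 1 of 6 motifs searched on both strands. These were the TATA motif TATAAA, the replication-related element TATCGATA, the alternating repeat ATATATAT, the E-box CAGCTG, the stress-response core TGACNNNGC and the GAGA motif GAGAG. Matches of different motifs may overlap, and each was counted.
Rpn3: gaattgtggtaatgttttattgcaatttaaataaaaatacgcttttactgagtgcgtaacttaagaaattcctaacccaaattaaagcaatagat
Prosbeta2: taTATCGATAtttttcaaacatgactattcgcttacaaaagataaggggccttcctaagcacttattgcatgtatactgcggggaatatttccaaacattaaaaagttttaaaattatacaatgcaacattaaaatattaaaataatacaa
Rpn5: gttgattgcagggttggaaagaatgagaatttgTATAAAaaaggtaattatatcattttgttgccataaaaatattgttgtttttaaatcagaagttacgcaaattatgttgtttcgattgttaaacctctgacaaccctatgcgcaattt
The GC content of these stretches was 27.4% at Rpn3, 27.2% at Prosbeta2 and 29.8% at Rpn5. The Prosbeta2 stretch held 1 match to TATCGATA and the Rpn5 stretch 1 match to TATAAA, and the Rpn3 stretch held no match to any of the 6.

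Rpn3, a lid subunit gene on 2L, had the highest signal of the 48 genes in every list in which it had a summit. Its conservative peak spanned 19051615 to 19051924, with the summit 20 bp upstream of the start site in intergenic sequence. The signal was 131 in the conservative list, rank 743 of 1474. It was 48.3 in replicate 1, rank 1030, and 81.4 in replicate 2, rank 690. That places the site in the strongest 1.98% of ranked peaks in replicate 1 and the strongest 1.85% in replicate 2. The replicates' summits lay 21 bp apart. Rpn3 was also in the thresholded list of replicate 2 but not in that of replicate 1. On the −log10 scale of the irreproducible discovery rate (IDR), where the authors' limit of 0.01 is 2, the peak stood at 4.46 in replicate 2 and at 0.94 in replicate 1. The same summit lay 158 bp from the start site of the neighbouring gene l(2)37Bb, so the peak cannot be given to 1 gene.

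Prosbeta2, the gene of the core subunit with trypsin-like activity, had the second conservative peak, at 14999609 to 14999918 on 3L. Its summit lay 187 bp upstream of the start site in both replicates, 0 bp apart. The signal was 86.0 in the conservative list, rank 1342 of 1474, and so near its weak end. It was 38.1 in replicate 1 and 44.9 in replicate 2, ranks 1539 and 1811. The peak was in neither replicate's own thresholded list, with a −log10 IDR of 1.71 in replicate 1 and 1.13 in replicate 2. In the series ranked lists, which derive from both replicates, it was 2.34 in the list behind the conservative list and 2.53 in the other. The former was taken as the list behind the conservative list because all conservative peaks pass the limit there. The summit lay nearer to the start site of mRpL39, a gene of the large mitochondrial ribosomal subunit, at 98 bp.

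Rpn5, a lid subunit gene on 3R, stood just outside the conservative list. Its peak, 5789096 to 5789405, had a signal of 75.9 and a −log10 IDR of 1.75 in the ranked list behind the conservative list, and 2.18 in the other series ranked list. It was therefore in the further thresholded list of the series, at rank 1566 of 1653. The signal was 35.4 in replicate 1 and 38.5 in replicate 2. The replicates' closest summits lay 4 bp apart, 236 and 240 bp upstream of the start site. The site lies in an intron of Hat1, a histone acetyltransferase gene, 133 bp from its start site.

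In each thresholded list the share of proteasome genes was lower than that of all genes, with an interval that includes it. In the conservative list 2 of the 48 had a summit, or 4.17% (0.509 to 14.3%), and 7.09% of all protein-coding genes did. The further list held 3 of 48, or 6.25%, against 8.07%. The 32 single-form genes alone stood at 6.25% in the conservative list and 9.38% in the further list. Replicate 1 alone had 0 of 48, for which the interval reaches 7.40%, against 6.99%, and replicate 2 alone had 1 of 48, or 2.08%, against 8.82%. All of these intervals hold the value for all genes.

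The ranked lists of the replicates, which include weak peaks, reach more of the genes, and the share is again near the background. In replicate 1, 22 of 48 genes had a summit, 45.8% (31.4 to 60.8%), against 45.1% of all protein-coding genes. In replicate 2 it was 18 of 48, 37.5% (24.0 to 52.6%), against 46.9%. A total of 29 genes had one in either replicate, 60.4% against 62.5%, and 11 had one in both, 22.9% (12.03 to 37.3%) against 29.5%. The other 19 genes had no summit in either ranked list. In replicate 1 the members' signals ran from 7.18 to 48.3 with a median of 15.7, against a median of 17.1 over all genes with a summit, and in replicate 2 from 11.5 to 81.4 with a median of 17.7, against 21.1.

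**Figure D1:**
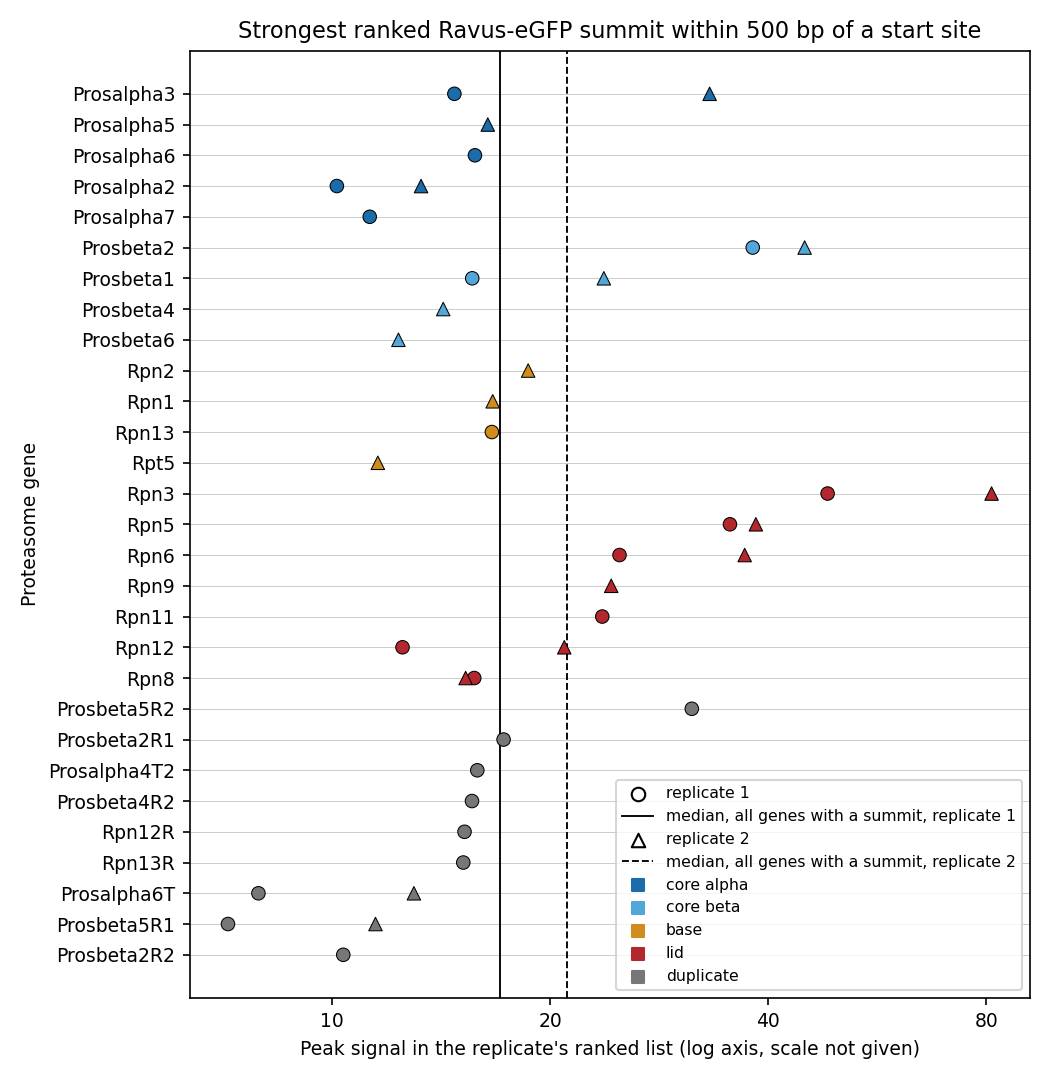
Each row is 1 of the 29 proteasome genes with a ranked summit within 500 bp of a start site, coloured by class. Circles (replicate 1) and triangles (replicate 2) give the signal of its strongest such peak on a log axis, and the vertical lines give the median over all protein-coding genes with a summit, 17.1 and 21.1. Rpn3, Prosbeta2, Rpn5 and Rpn6 lie above both lines in both replicates, and most duplicates have a circle only.

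The lid genes had ranked summits more widely than the other classes. In replicate 1, 6 of 8 lid genes had one, and in replicate 2 also 6 of 8, 75% in each (34.9 to 96.8%). In both replicates it was 5 of 8, 62.5% (24.5 to 91.5%), against 29.5% of all genes. Those 5 were Rpn3, Rpn5, Rpn6, Rpn8 and Rpn12, and in each the replicates' summits lay within 100 bp of each other, which held for 21.8% of all genes. Rpn7 alone of the lid genes had none in either replicate. In the further series ranked list it was 6 of 8, 75% (34.9 to 96.8%), against 22% of all genes, and in the other series ranked list 4 of 8, 50% (15.7 to 84.3%), against 22.2%. The intervals for replicate 1, replicate 2, both replicates and the latter series list include the background. Those for the same site and the further series list lie above it. The limit of 100 bp for the same site was chosen after seeing the data. Of the lid genes in the further series ranked list, only Rpn3 and Rpn5 passed the IDR limit there. Rpn9, Rpn11 and Rpn12 each stood at a −log10 IDR of 0.12 in that list. No test of the difference between classes was made.

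Rpn6, whose product is a scaffold of the lid, had the third strongest lid signal, 24.9 in replicate 1 and 37.1 in replicate 2, ranks 3694 and 2472. Both summits lay inside the gene, 139 and 228 bp upstream of an internal start site. The second was 22 bp from a start site of the gene ave. In the ranked series list behind the conservative list the signal was 59.5, with a −log10 IDR of 1.02, so it missed the limit. Rpn8, the partner of Rpn11 in the lid, had 15.7 and 15.3 at summits 2 bp apart, also within the gene and 33 to 35 bp from a start site of Slik, a kinase gene. Rpn12 had 12.5 and 20.9 at summits 5 bp apart, 474 and 479 bp upstream, in an exon of the neighbouring gene CR43727. The values of Rpn8 and Rpn12 lay below the medians of all genes with a summit, 17.1 and 21.1, in both replicates. Their −log10 IDR in replicates 1 and 2 was 0.06 and 0.04 at Rpn8 and 0.11 and 0.12 at Rpn12.

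Of the remaining lid genes, Rpn11 and Rpn9 had a summit in 1 replicate each. Rpn11 had a signal of 23.6 in replicate 1, rank 4373, 181 bp upstream of its start site, and no other gene's start site lay within 500 bp of that summit. Rpn9 had 24.3 in replicate 2, rank 6280, in an intron of the gene, 433 bp downstream of an internal start site. Neither passed the IDR limit, with −log10 values of 0.08 and 0.40. The Rpn11 stretch is shown as an upstream site with no neighbouring promoter, chr2L:5059896-5060046, minus strand, 151 bp with a GC content of 26.5%. Its capitals are TATAAA read on the opposite strand.
Rpn11: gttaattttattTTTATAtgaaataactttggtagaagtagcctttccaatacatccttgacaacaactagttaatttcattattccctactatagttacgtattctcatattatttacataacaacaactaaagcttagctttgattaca

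The base genes went the other way. Only Rpn13 of 10 had a summit in replicate 1, 10% (0.253 to 44.5%) against 45.1% of all genes, and 3 of 10 had one in replicate 2, 30.0% (6.67 to 65.2%) against 46.9%. No base gene had one in both, 0 of 10, for which the interval reaches 30.8% and so includes the 29.5% of all genes. Of the Rpt ATPase genes, Rpt1, Rpt2, Rpt3, Rpt4 and Rpt6 had no summit in any of the 8 lists, and neither did Rpn10. Rpt5 had a signal of 11.6 in replicate 2, rank 36941 of 37242, at the very bottom of the list. The scaffold genes Rpn1 and Rpn2 had 16.7 and 18.7 in replicate 2, and Rpn13, a ubiquitin receptor gene, 16.6 in replicate 1. All 4 values lay below the median of all genes with a summit in that replicate. The Rpn2 summit was 6 bp from the start site of Slbp, the histone mRNA binding protein gene, and that of Rpt5 was 33 bp from the start site of RanBP3.

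Narrower and wider windows left the order of the lid and base classes unchanged. Within 250 bp, 3 of 8 lid genes and 0 of 10 base genes had a summit in both replicates, against 18.5% of all genes. Within 1000 bp it was 7 of 8 and 2 of 10, against 46.3%. The 2 classes did not differ in the mean number of annotated start sites, 1.5 in each.

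**Figure D2:**
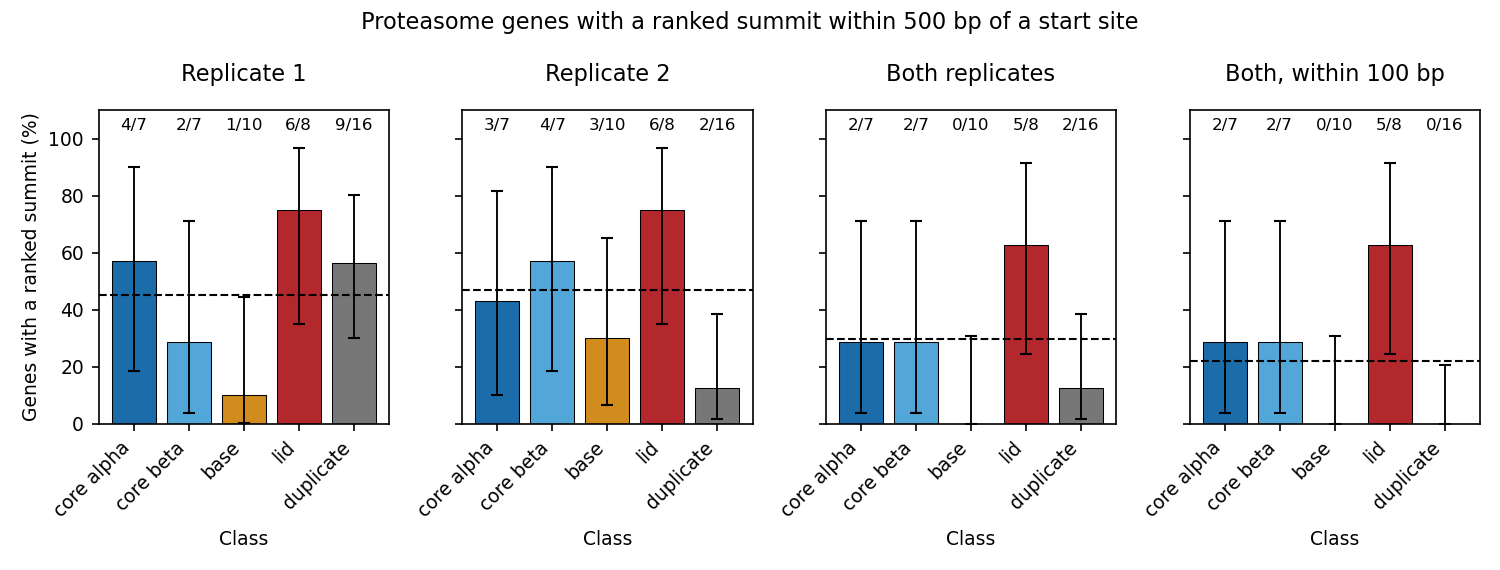
Bars give the percent of genes of each class with a ranked summit within 500 bp of a start site, in replicate 1, replicate 2, both, and both with summits within 100 bp. Error bars are exact 95% binomial intervals, the counts stand above the bars, and the dashed line is the share of all protein-coding genes, 45.1, 46.9, 29.5 and 21.8%. The lid bar lies above the line in every panel and the base bar below it, while the duplicate bar is 56.2% in replicate 1 and 12.5% in replicate 2.

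The genes of the 20S core stood at the background. Of the 14 core genes, 6 had a summit in replicate 1 (42.9% against 45.1%), 7 in replicate 2 (50% against 46.9%) and 4 in both (28.6% against 29.5%). The alpha and beta rings were alike, with 2 of 7 in both replicates each. Prosalpha3 had a weak summit in replicate 1, 14.8, and a stronger one in replicate 2, 33.2, ranks 20679 and 2980, 40 and 98 bp upstream. Prosalpha2 had 10.2 and 13.3, in coding sequence of the neighbouring gene CG5245. Prosbeta1, the gene of the caspase-like subunit, had 15.6 and 23.7, in coding sequence of the neighbouring gene Rrp42, an exosome subunit gene. Of the other 10 core genes, 5 had a summit in 1 replicate and 5 in neither. In replicate 1 Prosalpha6 had a signal of 15.7, 228 bp upstream in an intron of Npc1a, and Prosalpha7 had 11.3, 192 bp downstream in its own intron. In replicate 2 Prosalpha5 had 16.4, 401 bp downstream, Prosbeta6 had 12.3, 480 bp downstream, and Prosbeta4 had 14.2, 485 bp upstream in an untranslated region of Nubp1. All 5 lay below the median of all genes in their replicate. Prosbeta5, the gene of the chymotrypsin-like subunit, had no summit in any list, and neither did Prosalpha1, Prosalpha4, Prosbeta3 or Prosbeta7.

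The duplicates differed between the replicates. In replicate 1, 9 of 16 had a summit, 56.2% (29.9 to 80.2%), and in replicate 2, 2 of 16, 12.5% (1.55 to 38.3%), against 45.1% and 46.9% of all genes. The 9 were Prosalpha4T2, Prosalpha6T, Prosbeta2R1, Prosbeta2R2, Prosbeta4R2, Prosbeta5R1, Prosbeta5R2, Rpn12R and Rpn13R, and the 2 were Prosalpha6T and Prosbeta5R1, which are in both. In these 2 genes the replicates' summits lay 905 and 399 bp apart, so no duplicate had the same site in both replicates, 0 of 16 against 21.8% of all genes, with an interval that reaches 20.6%. No duplicate had a summit in a thresholded list. Most of their signals were low. Prosalpha6T had 7.91 and 13.0, and Prosbeta5R1 had 7.18 and 11.5, the last at rank 37217 of 37242. Of the duplicates with a summit in replicate 1 alone, Prosbeta2R1 had 17.3, Prosalpha4T2 15.9, Prosbeta4R2 15.6, Rpn12R and Rpn13R 15.2 each, and Prosbeta2R2 10.4. The duplicates Prosalpha1R, Prosalpha3T, Prosalpha4T1, Prosbeta4R1, Rpt3R, Rpt4R and Rpt6R had no summit in any list. The 12 single-form genes that have a duplicate had a summit in 5 cases in replicate 1, 4 in replicate 2 and 3 in both, at the same site in all 3.

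Prosbeta5R2, a duplicate of the gene of the chymotrypsin-like subunit, was the exception in signal. It had 31.4 in replicate 1, rank 2159 of 52143, with a −log10 IDR of 0.99, and no summit in replicate 2. The summit lay 362 bp downstream of the start site, in the gene's own coding sequence. In 1 series ranked list it had 37.4, with a −log10 IDR of 0.12. The stretch chr2L:17990705-17990855, plus strand and 151 bp long, is printed for contrast with the upstream sites above. Its GC content was 49.0% and it held none of the 6 motifs.
Prosbeta5R2: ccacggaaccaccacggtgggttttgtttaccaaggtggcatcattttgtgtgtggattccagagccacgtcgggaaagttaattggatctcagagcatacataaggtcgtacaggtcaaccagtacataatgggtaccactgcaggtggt

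The single-form genes and the duplicates had their replicate 1 summits mostly on different sides of the start site, a difference that was not tested. Of the 13 single-form genes with a summit there, 12 had the strongest one upstream of the nearest start site, 92.3% (64.0 to 99.8%), with a median position of -187 bp. Of the 9 duplicates, 2 did, 22.2% (2.81 to 60.0%), with a median of 245 bp. All protein-coding genes stood at 61.3%, with a median of -89 bp. In replicate 2, 13 of 16 single-form summits lay upstream, 81.2% (54.4 to 96.0%), against 62.97% of all genes. In both replicates the summits of Rpn6 and Rpn8 counted as upstream lay inside the gene, upstream only of an internal start site. The duplicates' summits fell in coding sequence in 5 of 9 cases in replicate 1, 55.6%, against 21.9% of all genes. Of the single-form genes it was 2 of 13, both in coding sequence of a neighbouring gene. In replicate 2 it was 4 of 16 single-form genes, 25%, and 1 of 2 duplicates, against 17.8% of all genes. Of those single-form genes, Prosalpha5 and Prosbeta6 had the summit in their own coding sequence.

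**Figure D3:**
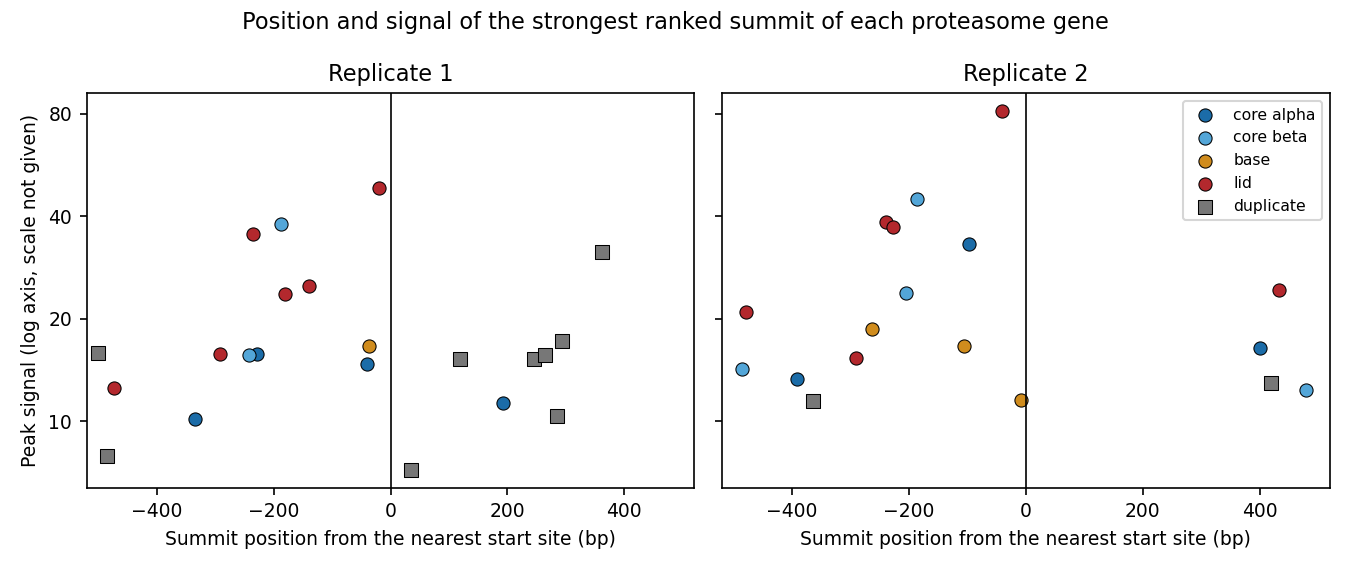
Each point is the strongest ranked summit of 1 proteasome gene, placed by its distance from the nearest start site in bp (negative is upstream) and its signal on a log axis, for replicates 1 and 2. Circles are single-form genes and squares are duplicates. In replicate 1, 12 of 13 circles lie upstream and 7 of 9 squares downstream.

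Promoters shared with a neighbour differed between the classes as well. Another gene's start site lay within 500 bp of a start site of 21 of the 32 single-form genes, 65.6%, of 3 of the 16 duplicates, 18.8%, and of 34.1% of all protein-coding genes. Within the lid it was 6 of 8 and within the base 6 of 10. Of the 9 single-form genes with the same site in both replicates, 7 had a summit within 500 bp of another gene's start site in replicate 1 and replicate 2 alike, and Prosalpha2 and Rpn12 did not. Among the 7, Prosalpha3 had its summits 479 and 421 bp from the start site of dgt3. The part of the neighbours in these summits was not tested. The 34.1% covers genes with or without a summit, so it is not a like comparison for the 7 of 9.

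The 9 single-form genes with the same site in both replicates kept much the same order of signal. Spearman's rho between the replicates was 0.883 over these 9 genes and 0.814 over the 3041 protein-coding genes with the same site in both. These points share the libraries, and the genes are not independent replicates. The summits lay 0 to 89 bp apart, with a median of 21 bp, against 23 bp over all such genes. In both replicates Rpn3 had the highest signal and Prosbeta2 the second, followed by Rpn5 and Rpn6.

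The strongest sites at proteasome genes were AT-rich. In a window centred on the conservative summit, 50 bp to either side, GC was 23.8% at Rpn3 and 32.7% at Prosbeta2, and in flanking windows 300 bp to either side it was 48.5% and 42.1%. All genes with a conservative summit had a median of 28.7% at the summit and 45.05% in the flanks. At Rpn5 it was 21.8% and 34.7%. Over the 13 single-form genes with a summit in replicate 1 the median was 32.7% at the summit, with a median difference of -9.41 percentage points from the flanks. Of these, 8 of 13 were lower at the summit, 61.5%, against 52.7% of all genes and 65.0% of all genes with an upstream summit. By part, it was 2 of 6 core genes, with a median difference of 2.97 points, and 6 of 7 genes of the 19S particle. Over the 9 duplicates the median at the summit was 45.5%, with a median difference of 3.47 points, and 3 of 9 were lower. Among all genes the summits upstream of the start site had a median of 35.6% and those downstream 49.5%. Of the single-form summits in replicate 2, 10 of 16 were lower in GC than their flanks, 62.5%, with a median difference of -3.47 points. All genes stood at 53.3% there, and those with an upstream summit at 64.9%.

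**Figure D4:**
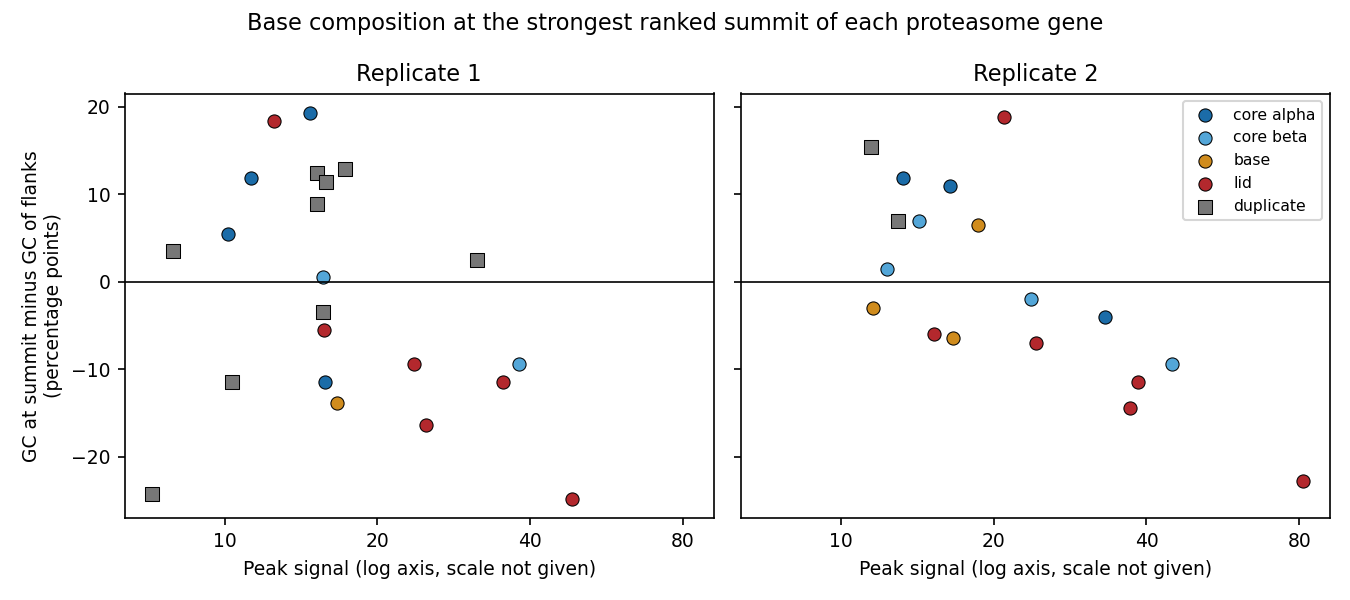
Each point is the strongest ranked summit of 1 proteasome gene, with its signal on a log axis and, on the vertical axis, GC in the window at the summit minus GC in the flanks, in percentage points. Rpn3, at the far right, lies at -24.8 in replicate 1 and -22.8 in replicate 2, while weaker summits lie on either side of 0.

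The sequence TATCGATA, the DNA replication-related element, is known from fly housekeeping promoters. It stood between 250 bp upstream and 50 bp downstream of the gene's 5' end in 12 of 32 single-form genes, 37.5% (21.1 to 56.3%), in 0 of 16 duplicates (up to 20.6%) and in 9.36% of all 13968 promoters of the same length. It reads the same on both strands. By class it stood in 3 of 7 alpha, 3 of 7 beta, 4 of 8 lid and 2 of 10 base genes. A ranked summit in both replicates was found in 5 of the 12 with the element and in 4 of the 20 without, and over all genes in 33.6% with and 29.0% without. Of the 12 elements, 8 are shown with 8 bp on either side, each on the strand of the gene and 24 bp long, with the element in capitals. Counted from the gene's 5' end, the element's first base stood at -197 in Rpn3 (chr2L:19051585-19051608) and -10 in Prosbeta2 (chr3L:14999933-14999956), both plus strand. In Rpn12 it stood at -216 (chr3L:16582804-16582827) and in Rpt5 at -46 (chr3R:23752822-23752845), also plus strand. It stood at -16 in Prosalpha6 (chr2L:10221327-10221350, plus strand), -44 in Prosbeta6 (chr3L:16610447-16610470), 3 in Rpn7 (chr3R:22462036-22462059) and 26 in Rpn9 (chr3R:23733421-23733444), the last 3 on the minus strand.
Rpn3: tatcggagTATCGATAtcgaaaag
Prosbeta2: tgaatataTATCGATAcaatatcg
Rpn12: ttaaaataTATCGATAttaaagca
Rpt5: gctgtcacTATCGATAagcgccgg
Prosalpha6: gaatccctTATCGATAcccgatac
Prosbeta6: tgtataccTATCGATAacgtttaa
Rpn7: gtataattTATCGATAattttggg
Rpn9: cggttaaaTATCGATAttctcgcg
At Rpn3 the centre of the element lay 173 and 152 bp from the summits of replicates 1 and 2, at Prosbeta2 181 bp from both, and at Prosalpha3 51 and 7 bp. The Prosbeta2 summit stretch printed earlier holds a further match, which lies outside this promoter window. Rpn7 has the element and no summit.

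The other 5 motifs stood in the promoters in the following shares. TATAAA stood in 13 of 32 single-form promoters (40.6%) and 5 of 16 duplicate promoters (31.2%), against 45.8% of all. TGACNNNGC, a core of the sites bound by the stress factor encoded by cnc, stood in 5 of 32 and 1 of 16, against 8.62%. GAGAG stood in 3 of 32 and 6 of 16, against 29.7%, CAGCTG in 1 of 32 and 1 of 16, against 17.6%, and ATATATAT in 1 of 32 and 1 of 16, against 6.02%.

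The distance to the nearest conservative summit was also taken for each gene on an arm that holds one, promoter summits included. That left 13945 protein-coding genes, which the values for all genes in this paragraph cover. The median distance from a start site to the nearest conservative summit was 11.6 kb for the 32 single-form genes (quartiles 3.47 and 23.2 kb), 50.8 kb for the 16 duplicates (25.1 and 68.7 kb) and 24.3 kb for all protein-coding genes (8.01 and 60.3 kb). Within 5 kb there was one for 6 of 14 core genes, Prosbeta2 among them, 3 of 8 lid genes, Rpn3 among them, 0 of 10 base genes and 1 of 16 duplicates, against 17.8% of all genes.

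The other genes listed from the ubiquitin and proteasome pathway had a larger share with summits than the subunit genes. That difference was not tested, and the list was chosen with earlier results of these data known. The list of 36 genes held mainly assembly and activator factors, ubiquitin, its relatives and their enzymes, shuttle and segregase factors, the factor cnc with its partners, and the COP9 signalosome, a complex related to the lid. It also held eIF3m, a translation initiation factor gene outside the pathway, which had a summit in both replicates, with signals of 25.6 and 29.3. Sem1 was on it too, a lid subunit gene whose symbol the rule for subunit genes does not match, and it had no summit in any list. All 36 were matched in the annotation, 2 of them by an older symbol. In the conservative list 5 of 36 had a summit, 13.9%, against 7.09% of all genes, and no intervals were computed for the 36. In the ranked lists it was 23 of 36 in replicate 1, 27 in replicate 2 and 20 in both, 63.9, 75 and 55.6%, against 45.1, 46.9 and 29.5%. These genes have more start sites, a mean of 1.69 against 1.34 in the single-form subunit genes and 1.41 in all genes. At the 5' end alone, 18 of 36 had a summit in both replicates, against 8 of 32 single-form subunit genes and 24.8% of all genes.

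The 5 pathway genes with a conservative peak were alien, Uba2, Npl4, Uba3 and Pomp. The signalosome subunit gene alien, whose product is related to Rpn6, had the highest, 238 at rank 250, with 93.4 in replicate 1 and 144 in replicate 2. Uba2, for a subunit of the enzyme that activates SUMO, had 156, with 69.5 and 82.8 in the replicates. Npl4, whose product helps the ATPase TER94 deliver substrates to the proteasome, had 135, with 41.7 and 91.2. Uba3, for a subunit of the enzyme that activates Nedd8, had 114, with 55.2 and 56.8. Pomp, for a factor that assembles the 20S core, had 100.1, with 42.7 and 55.8, and its summits lay 219 and 306 bp upstream of its start site. All 5 had a higher conservative signal than Prosbeta2, and 3 of them exceeded Rpn3. The conservative summits at alien, Uba2 and Uba3 also lay within 500 bp of a start site of CG18661, Cds and tum, respectively. Those peaks therefore cannot be given to 1 gene. No other gene's start site lay that near at Npl4 and Pomp. Ufd4, a ubiquitin ligase gene, was in the thresholded list of replicate 2 only, with 42.2. The gene cnc is named for its role and not for its values. Its product has mammalian relatives that act on proteasome genes, and it had no thresholded summit and ranked signals of 23.4 and 37.1.

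**Figure D5:**
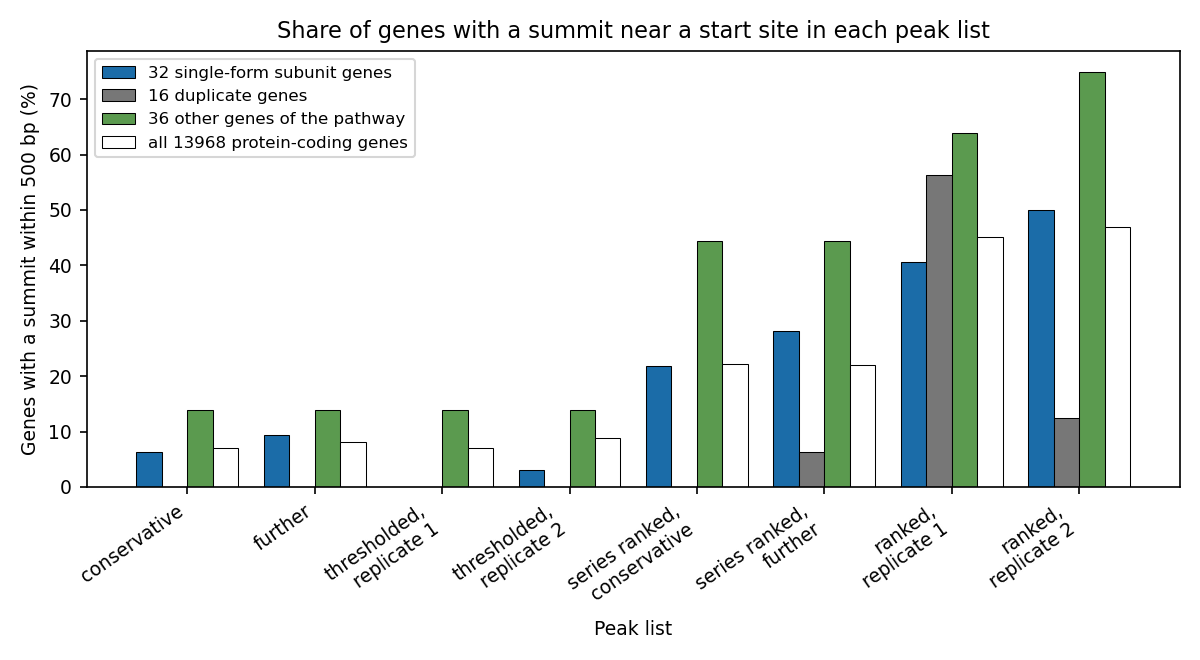
Bars give the percent of genes with a summit within 500 bp of a start site in each of the 8 peak lists, for single-form subunit genes, duplicates, other genes of the pathway and all protein-coding genes. In the conservative list these are 6.25, 0, 13.9 and 7.09%, and in the ranked list of replicate 2 they are 50, 12.5, 75 and 46.9%.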

How the data were processed

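Peak lists of 2 ChIP-seq samples of 1 group were analysed, 2 lists a sample and 4 of the series. The authors deposited a signal for each peak, and in the ranked lists also the −log10 of the IDR. The peaks are on dm6 and derive from alignments, a control and a further input that is not described, per the deposited file lists. The sources used here do not give the aligner or the peak caller. Depth is unknown, so a gene without a summit may lie below detection.

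Genes came from Ensembl 115 (BDGP6), and sequence from the RefSeq Release 6 genome, the same assembly. Coordinates are 1-based. Per gene the strongest summit within 500 bp of any start site was kept, and signal was ranked within its list. Counts were set beside those of all protein-coding genes, without a test. Python 3.11.15, pandas 2.3.3 and scipy 1.17.1 were used, and the assignment was tested on simulated data. Named genes are those with a thresholded summit and, in each class, up to 3 with the highest mean signal percentile in both replicates, and pathway genes with a thresholded summit, and others are named to account for every member. Alternatives were other windows, start sites, lists and signal limits, and leaving out a replicate. Members, classes, motifs and the pathway list were chosen with earlier results of these data known.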

Additional observations from a re-analysis of the deposited data

How the results depend on the processing

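The percent after each count or pair is the share of all protein-coding genes under the same setting. The 2 genes with a conservative summit (7.09%) were also 2 with windows of 250 and 1000 bp, the 5' end only and peak intervals, and 3 in the further list (8.07%). The count was 0 in the upper 50% of peaks by signal (3.95%) and 0 to 1 when a replicate was left out (6.99 and 8.82%). Within 250 bp, replicate 1 had 14 genes (30.0%) and replicate 2 had 9 (32.7%), and in the upper 50% of peaks replicate 2 had 9 (32.6%). The 11 in both replicates (29.5%) became 6 within 250 bp (18.5%), 17 within 1000 bp (46.3%), 6 in the upper 50% of peaks (19.5%), 7 in the series ranked list of the conservative peaks (22.2%), 4 among the 5000 strongest peaks of each list (11.2%), and 18 to 22 when a replicate was left out (46.9 and 45.1%). The 9 single-form genes of 32 became 14 within 1000 bp (46.3%), 4 among the 5000 strongest (11.2%) and 13 to 16 when a replicate was left out (45.1 and 46.9%). The 2 duplicates of 16 became 0 within 250 bp (18.5%), in the upper 50% of peaks (19.5%) and among the 5000 strongest (11.2%), 0 and 1 in the series ranked lists (22.2 and 22%), and 2 to 9 when a replicate was left out (46.9 and 45.1%). They were also 0 when summits had to lie within 100 bp in both replicates (21.8%), a setting chosen after seeing the data. No paired analysis was possible because there is 1 group of samples. The unknown depth limits every count of genes without a summit, and the small classes give wide intervals.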
